A study of Mus musculus with 22 samples.

Results

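The Notch receptors Notch1, Notch2 and Notch3, the ligands Jag1, Jag2 and Dll1, the target genes Hes1 and Hey1, the nuclear coactivator Maml1 and the receptor-modifying enzyme Lfng (lunatic fringe) were followed through RNA sequencing of mouse bladder organoids. These 10 genes were chosen by name as core members of the pathway, with earlier results of these data known. All 10 were found among the 24421 genes in the count files. The 22 libraries fall into 8 groups. Primary bladder urothelial organoids, which are epithelial cultures grown in a gel, were ARID1A KO or ARID1A WT, and each genotype gave 3 libraries of total RNA, 3 of the polysome fraction and 3 of the subpolysome fraction of a sucrose gradient. Bladder cancer organoids, called isogenic in the labels, gave total RNA from 2 libraries labelled KO and 2 labelled WT. Arid1a encodes a DNA-binding component of SWI/SNF chromatin remodellers. The strain and age of the mice, the way Arid1a was deleted, and any separate origin of the replicates in animals or cultures are missing from the sources used, and every p-value here therefore speaks of variation among libraries, part or all of which could be technical.

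Notch signalling passes between cells in contact. A ligand of the Jagged or Delta-like family on a cell binds a Notch receptor on its neighbour, the receptor is cut by ADAM proteases and gamma-secretase, and its freed intracellular domain enters the nucleus, where it joins the DNA-binding protein RBPJ and a Mastermind-like coactivator to switch on genes of the Hes and Hey families. Fringe enzymes such as Lfng add sugars to the receptor and thereby alter which ligands activate it. In stratified epithelia, the urothelium among them, the pathway is known for its part in the choice between basal renewal and differentiation, and inactivating mutations of NOTCH genes have been described in human bladder cancer.

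The 250 bases before and 50 bases after the start of the 3 ligand genes and of Lfng are shown here because the ligands carried the differences between the genotypes and Lfng was the member whose window held the RBPJ motif. The sequences are from RefSeq on GRCm38.p6, written 5′ to 3′ on the gene's strand. Windows were given for 8 of the 10 genes. There was none for Hes1 and Hey1, so their promoters were not searched. The motifs searched on both strands were TGGGAA, the core bound by RBPJ, and TGANTCA, a loose form of the AP-1 site. N stands for any base, and a match is set in capitals. The windows lie at chr2:137116471-137116770 (minus strand) for Jag1, chr12:112929446-112929745 (minus strand) for Jag2, chr17:15376883-15377182 (minus strand) for the farther upstream of the Dll1 windows, and chr5:140607091-140607390 (plus strand) for Lfng.
Jag1: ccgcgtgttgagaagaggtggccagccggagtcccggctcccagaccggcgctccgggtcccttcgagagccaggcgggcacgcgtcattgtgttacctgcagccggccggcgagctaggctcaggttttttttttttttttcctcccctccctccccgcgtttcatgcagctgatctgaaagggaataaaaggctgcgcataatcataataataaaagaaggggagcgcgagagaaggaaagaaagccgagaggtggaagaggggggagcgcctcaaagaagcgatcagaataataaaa
Jag2: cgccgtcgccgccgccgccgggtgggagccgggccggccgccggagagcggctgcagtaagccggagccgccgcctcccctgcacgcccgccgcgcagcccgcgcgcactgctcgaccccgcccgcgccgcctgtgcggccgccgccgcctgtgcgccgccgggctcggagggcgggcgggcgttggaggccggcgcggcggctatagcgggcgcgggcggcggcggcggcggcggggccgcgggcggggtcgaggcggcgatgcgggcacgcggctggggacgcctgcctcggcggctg
Dll1: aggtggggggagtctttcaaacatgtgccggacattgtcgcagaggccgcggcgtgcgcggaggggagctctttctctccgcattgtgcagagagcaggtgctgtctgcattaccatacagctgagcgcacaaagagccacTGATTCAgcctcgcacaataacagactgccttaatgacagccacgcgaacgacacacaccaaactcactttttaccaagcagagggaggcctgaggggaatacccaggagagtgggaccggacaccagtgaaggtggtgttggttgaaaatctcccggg
Lfng: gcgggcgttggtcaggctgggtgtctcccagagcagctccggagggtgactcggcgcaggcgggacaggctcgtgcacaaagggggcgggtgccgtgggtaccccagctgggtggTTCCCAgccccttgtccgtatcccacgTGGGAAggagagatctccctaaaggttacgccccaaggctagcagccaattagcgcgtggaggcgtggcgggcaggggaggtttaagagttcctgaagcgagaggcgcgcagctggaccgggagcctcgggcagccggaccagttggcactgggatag

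The Lfng window held 2 matches to the RBPJ core, beginning at positions -135 (minus strand, so it reads TTCCCA) and -108 relative to the start. Over 32851 RefSeq windows of this length, 25.56% held at least 1 such match and 3.79% held 2 or more. The Dll1 window shown held 1 match to the loose AP-1 pattern, with T as the middle base. At least 1 match to this pattern was in 7.81% of all windows. None of these letters were found in the windows of Jag1, Jag2, Notch1, Notch2, Notch3 and Maml1, or in the other Dll1 window. The ligand windows differed in base composition: Jag2 was 86.0% G and C with 63 CpG dinucleotides, Jag1 was 55.7% G and C with 22, and the median over all windows was 52.7% with 7.

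Library totals ranged from 66227600 to 74605489 counts in total RNA, from 64911189 to 76594655 in polysomes, from 39245248 to 51628570 in subpolysomes and from 48429672 to 55431426 in the cancer libraries. Levels below are CPM (counts scaled to library size with TMM factors over the 22 libraries). Arid1a itself stood at 75.2, 75.3 and 84.1 CPM in KO total RNA, against 114, 131 and 117 CPM in WT total RNA. In subpolysomes Arid1a was 75.0, 63.9 and 62.1 CPM in KO libraries, against 60.1, 62.3 and 55.5 CPM in WT libraries, so the gene was not lower in KO there. In the cancer organoids it stood at 174 and 56.3 CPM in the libraries labelled KO, against 66.5 and 196 CPM in those labelled WT, so 1 library of each label ran against it. The Y-linked gene Ddx3y had 2896 and 12 counts in the cancer libraries labelled KO, against 3478 and 2578 in those labelled WT, so KO replicate 2 stood apart. The part of Arid1a that was deleted is not given, so reads outside it would check nothing. Basal urothelial markers such as Krt5 and Trp63 summed to 12980 to 13970 CPM in KO and 11800 to 13840 CPM in WT total RNA. Most of that sum was Krt5. Of the 8 markers 3 were higher and 2 lower in KO (adjusted p under 0.05, edgeR), beside 27.0% of all genes tested higher and 26.3% lower. Trp63 stood at 305 CPM in KO and 215 CPM in WT, and Krt14 at 1432 CPM in KO and 1927 CPM in WT. Endothelial markers summed to 0.437 to 0.693 CPM in KO and 0.367 to 0.950 CPM in WT total RNA, with the defining genes Cdh5 and Tie1 at or near 0, and the leukocyte genes Ptprc and Lyz2 had 0 counts.

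In total RNA the KO organoids had less Jag1 and more Jag2 and Dll1 than the WT organoids, while the receptors differed little. Of the 10 members, 9 passed the filter on low counts and were tested, and 5 passed the threshold of 0.05 on the adjusted p (edgeR quasi-likelihood test, Benjamini-Hochberg adjustment over all genes tested), against 53.2% of the 13198 genes tested. Jag2, Dll1 and Notch2 were higher in KO, as were 27.0% of all genes tested. Jag1 and Notch3 were lower in KO, as were 26.3% of all genes tested. The median log2 fold change over the 9 members was -0.03, beside 0.00 over all genes. In 6 of the 9 the KO and WT libraries did not overlap, against 61.5% of all genes, so the share of members that differed lay near that of all genes.

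Jag1, a Jagged ligand (chr2:137081456-137116644, minus strand, GRCm38 with the GENCODE vM21 annotation, as for the genes below), stood at 107, 133 and 133 CPM in the 3 KO libraries, against 305, 326 and 361 CPM in the 3 WT libraries. Every KO library was below every WT library. The log2 fold change was -1.39 ± 0.08 (SE), a 2.62-fold lower level in KO (adjusted p = 1.03e-07, edgeR), and 4.15% of all genes tested had a fold change as low or lower.

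Jag2, the other Jagged ligand (chr12:112907819-112929776, minus strand), stood at 104, 97.9 and 103 CPM in KO, against 62.2, 55.6 and 55.4 CPM in WT. The KO libraries lay within a narrow band above all WT libraries. The log2 fold change was 0.84 ± 0.06 (SE), 1.80-fold higher in KO (adjusted p = 2.35e-07, edgeR).

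Dll1, a Delta-like ligand (chr17:15367354-15376872, minus strand), stood at 35.5, 33.2 and 37.98 CPM in KO, against 22.8, 17.0 and 15.6 CPM in WT. The groups did not overlap, and WT replicate 1 was the highest of its group. The log2 fold change was 0.97 ± 0.12 (SE), 1.96-fold higher in KO (adjusted p = 3.51e-05, edgeR), and all 3 ligands passed the threshold under each of 12 alternative settings.

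**Figure D1:**
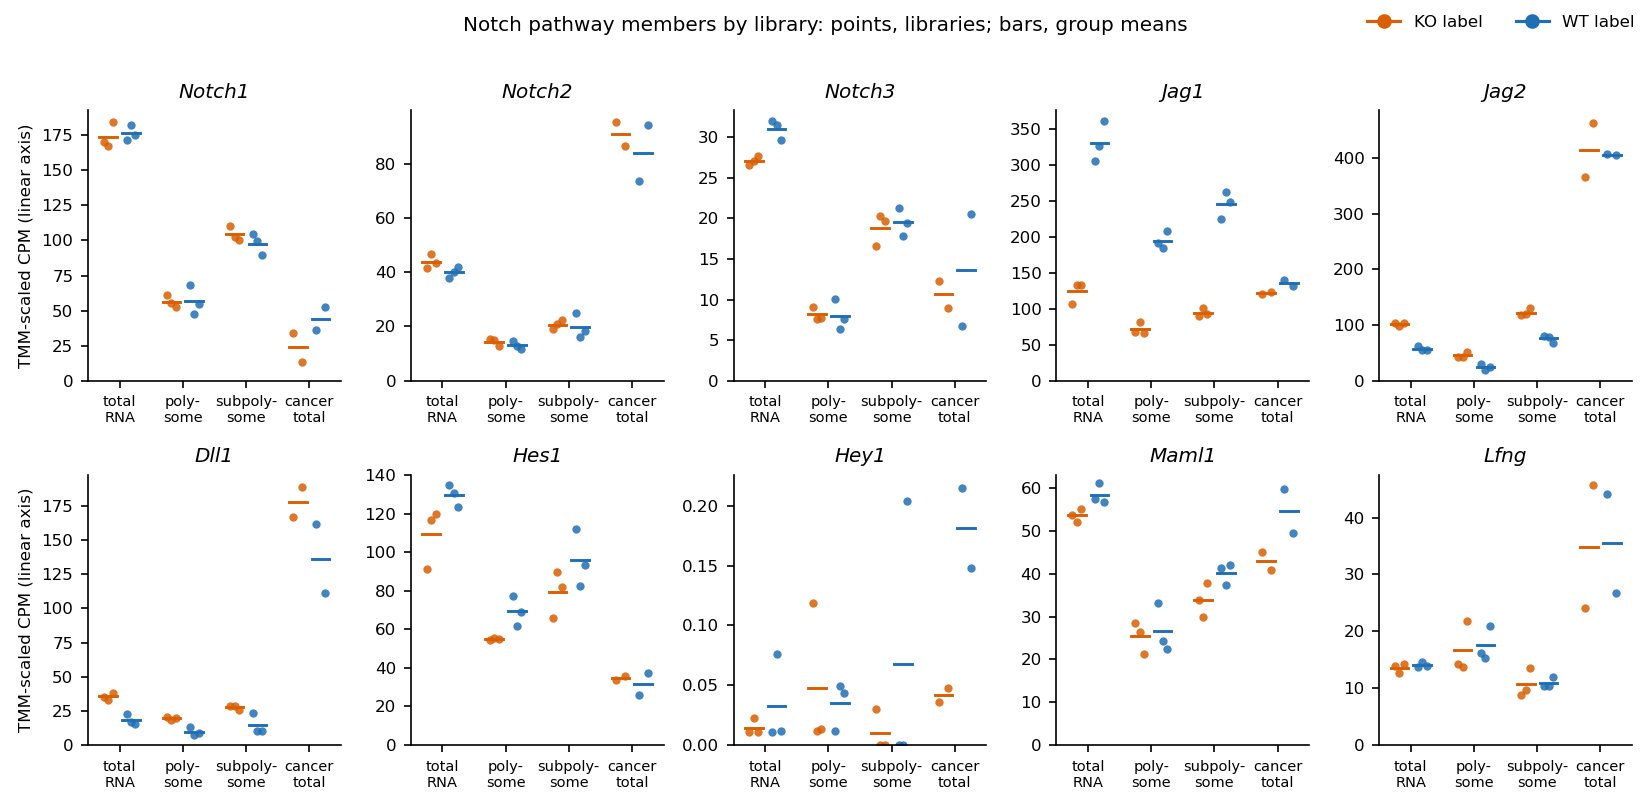
TMM-scaled CPM (vertical axis, linear, from 0) of the 10 members in every library, by kind of RNA (horizontal axis) with the KO label left of the WT label; points are libraries and bars are group means. Jag1 is lower and Jag2 and Dll1 are higher in KO than in WT total RNA, polysomes and subpolysomes, with no overlap of the groups in any of these 3 pairs.

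The ligands moved in opposite directions, so their proportions shifted as well. Per kilobase of exon, Jag1 averaged 21.3 ± 2.6 CPM in KO and 56.8 ± 4.8 CPM in WT total RNA (SD, n = 3 each). Jag2 averaged 14.6 ± 0.5 CPM per kilobase in KO and 8.29 ± 0.55 in WT, and Dll1 averaged 8.43 ± 0.57 in KO and 4.38 ± 0.91 in WT. Jag1 made up 47.9% ± 3.6 of the reads per kilobase of the 3 ligands in KO and 81.7% ± 2.9 in WT. Jag2 made up 33.0% ± 2.4 in KO and 11.98% ± 1.3 in WT, and Dll1 made up 19.0% ± 1.3 in KO and 6.4% ± 1.6 in WT (SD, n = 3 each). The summed ligand level was 44.3 ± 2.5 CPM per kilobase in KO and 69.4 ± 3.7 in WT.

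The ratio of Jag1 to Jag2 counts needs neither a library scaling nor a gene length. Its log2 value in total RNA was 0.04, 0.44 and 0.36 in the KO libraries, against 2.30, 2.55 and 2.70 in the WT libraries, so the ratio was 4.72-fold lower in KO (exact two-sided permutation test, p = 0.1, the smallest that 3 against 3 libraries allow). In polysomes it was 5.24-fold lower and in subpolysomes 4.21-fold lower in KO, each again at p = 0.1 by the exact permutation test. Leaving out any library kept the difference in total RNA between -2.35 and -2.12 on the log2 scale.

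**Figure D2:**
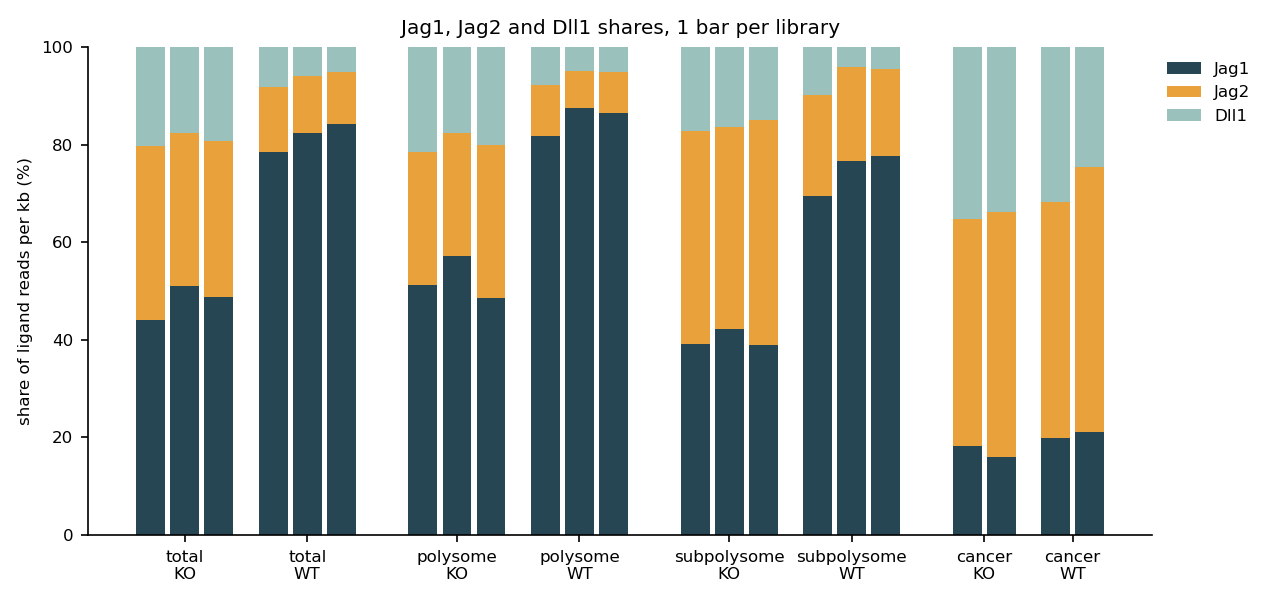
Share of Jag1, Jag2 and Dll1 in the summed reads per kilobase of the 3 ligands (vertical axis, %), 1 stacked bar per library, with KO left of WT in each kind of RNA. Jag1 averages 47.9% in KO and 81.7% in WT total RNA, and 17.1% in the cancer libraries labelled KO and 20.5% in those labelled WT.

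Among the receptors, Notch1 (chr2:26457903-26516663, minus strand) stood at 170, 167 and 184 CPM in KO total RNA, against 172, 183 and 175 CPM in WT. The groups overlapped, and the log2 fold change was 0.01 ± 0.05 (SE; adjusted p = 0.904, edgeR). Notch1 was the main receptor transcript in both genotypes, with 62.2% ± 1.5 of the reads per kilobase of the 3 receptors in KO and 62.1% ± 0.6 in WT (SD, n = 3 each).

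Notch2 (chr3:98013527-98150361, plus strand) stood at 41.5, 46.6 and 43.5 CPM in KO, against 38.03, 40.1 and 41.96 CPM in WT, and the ranges of the groups overlapped. Its log2 fold change was 0.16 ± 0.06 (SE; adjusted p = 0.0333, edgeR). The call was lost without KO replicate 2 or 3 and without WT replicate 1 or 2, where the log2 fold change was 0.11, 0.16, 0.13 and 0.15. It was also lost in the fit over the 18 primary libraries, at 0.13 (adjusted p = 0.522, edgeR). The adjusted p ranged from 0.0194 to 0.522 over the alternatives.

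Notch3 (chr17:32120820-32166852, minus strand) stood at 26.6, 27.1 and 27.7 CPM in KO, against 32.1, 31.5 and 29.7 CPM in WT, with no overlap. Its log2 fold change was -0.17 ± 0.05 (SE; adjusted p = 0.0213, edgeR). That call too was lost without KO replicate 1 or 2 or WT replicate 1, at -0.15, -0.17 and -0.14. It was also lost in the fit over the 18 primary libraries, at -0.20 (adjusted p = 0.299, edgeR). The adjusted p ranged from 0.0176 to 0.299 over the alternatives. The summed receptor level was 19.6 ± 0.7 CPM per kilobase in KO and 19.95 ± 0.45 in WT (SD, n = 3 each).

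Hes1, a transcriptional repressor and the best known Notch target (chr16:30064384-30067796, plus strand), stood at 91.4, 117 and 120 CPM in KO, against 135, 131 and 123 CPM in WT. All KO libraries were below all WT libraries, with KO replicate 1 the lowest. The log2 fold change of -0.22 ± 0.09 (SE) did not pass the threshold (adjusted p = 0.0505, edgeR). It passed in 7 of 12 alternatives, with an adjusted p between 0.0162 and 0.148.

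Hey1, another repressor of this target family (chr3:8663359-8667256, minus strand), was close to undetected. It had 1, 2 and 1 counts in KO total RNA, against 1, 6 and 1 counts in WT, too few for a test. Polysomes held 11, 1 and 1 counts in KO against 1, 4 and 3 in WT, and subpolysomes held 1, 0 and 0 in KO against 0, 0 and 6 in WT, so a difference was not detectable at this depth.

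Maml1, the coactivator that bridges the Notch intracellular domain to histone acetylation (chr11:50255634-50292311, minus strand), stood at 53.8, 52.1 and 55.1 CPM in KO, against 57.6, 61.2 and 56.9 CPM in WT. The groups did not overlap, and the log2 fold change of -0.10 ± 0.05 (SE) did not pass (adjusted p = 0.0955, edgeR). Lfng (chr5:140607320-140615545, plus strand) stood at 13.9, 12.7 and 14.2 CPM in KO, against 13.8, 14.6 and 13.9 CPM in WT. Its groups overlapped, with a log2 fold change of -0.03 ± 0.07 (SE; adjusted p = 0.769, edgeR).

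In both genotypes Hes1 had the highest level per kilobase among the members, at 53.7 ± 7.7 CPM in KO and 63.6 ± 2.8 CPM in WT total RNA (SD, n = 3 each), and Jag1 came next. The Notch1 level of 12.2 ± 0.6 CPM per kilobase in KO and 12.4 ± 0.4 in WT fell below Jag2 in KO and above it in WT. This order rests on exon-union lengths, 14232 bases for Notch1 and 6965 for Jag2, which can exceed the length of a single transcript. Without length scaling Notch1 was above Jag2 in both, at 174 against 102 CPM in KO and 176 against 57.7 CPM in WT. Annotated antisense genes share exon bases with Notch1, Notch3, Dll1 and Maml1, and a same-strand gene with Notch2. Whether counting used strand is not given, so reads of such pairs cannot be told apart.

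The marker genes of luminal urothelium moved with genotype. Of 14, 12 were higher and 1 (Krt20) was lower in KO total RNA. Over all genes tested in total RNA 27.0% were higher and 26.3% lower, which applies to the other marker counts here too. The luminal markers summed to 2826 to 3123 CPM in KO and 2114 to 2191 CPM in WT. Squamous markers summed to 3176 to 3303 CPM in KO and 1954 to 2270 CPM in WT, with 3 of 9 tested higher and 4 lower. Most of that sum was Sprr1a, at 2297 CPM in KO and 1307 CPM in WT, while Krt1, Krt10, Sprr1b and Sprr2d were lower in KO. The sum of the 10 fibroblast and muscle markers, 18.5 to 20.4 CPM in KO and 19.8 to 23.5 CPM in WT, covered opposite moves, with 1 of 5 tested higher and 2 lower. Acta2 averaged 16.95 CPM in KO and 5.29 CPM in WT, and Rgs5 0.891 CPM in KO and 12.8 CPM in WT. Immune markers, nearly all of it Cd68, summed to 17.7 to 19.8 CPM in KO and 8.17 to 9.57 CPM in WT. The part of these markers in the ligand differences was not tested, and in bulk RNA fewer cells of a type and less RNA per cell cannot be told apart.

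The ligand differences recurred in both gradient fractions. Polysomes are mRNAs carrying several ribosomes, whereas mRNAs in the lighter subpolysome fraction carry few or none. In polysomes 3 of 9 tested members passed the threshold, against 28.8% of all genes tested, and in subpolysomes 3 of 9 did, against 22%. These were Jag1, Jag2 and Dll1 in both fractions, in the same directions as in total RNA.

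In polysomes Jag1 stood at 67.1, 81.4 and 66.4 CPM in KO, against 191, 184 and 208 CPM in WT, a log2 fold change of -1.41 ± 0.13 (SE; adjusted p = 4.60e-07, edgeR). In subpolysomes it stood at 89.4, 101 and 92.2 CPM in KO, against 225, 262 and 249 CPM in WT, a log2 fold change of -1.37 ± 0.11 (SE; adjusted p = 6.43e-10, edgeR). All 6 KO fraction libraries were below all 6 WT ones.

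Jag2 in polysomes stood at 42.5, 43.2 and 51.4 CPM in KO, against 29.5, 18.8 and 23.7 CPM in WT, a log2 fold change of 0.95 ± 0.16 (SE; adjusted p = 0.000217, edgeR). In subpolysomes Jag2 stood at 119, 119 and 130 CPM in KO, against 80.2, 79.2 and 68.2 CPM in WT, a log2 fold change of 0.70 ± 0.11 (SE; adjusted p = 2.90e-05, edgeR). Within each fraction the KO libraries were above the WT libraries.

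Dll1 in polysomes stood at 20.4, 18.1 and 19.99 CPM in KO, against 13.0, 7.55 and 9.03 CPM in WT, a log2 fold change of 1.01 ± 0.18 (SE; adjusted p = 0.000379, edgeR). In subpolysomes it stood at 28.4, 28.3 and 25.7 CPM in KO, against 23.4, 10.0 and 10.4 CPM in WT, a log2 fold change of 0.92 ± 0.23 (SE; adjusted p = 0.0037, edgeR). WT replicate 1 of the subpolysomes lay nearer the KO libraries than the other WT libraries did, and without it the log2 fold change was 1.45.

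The remaining tested members did not pass in either fraction. Hes1 stood at 54.4, 55.6 and 55.2 CPM in KO polysomes, against 77.3, 61.8 and 68.9 CPM in WT polysomes, with no overlap, at a log2 fold change of -0.30 ± 0.13 (SE; adjusted p = 0.0881, edgeR). With the replicate number as a block, since same-numbered libraries of this fraction deviated together, the Hes1 value passed at -0.30 (adjusted p = 0.0355, in a range of 0.0355 to 0.279 over the alternatives). Over both fractions the log2 fold changes of Notch1, Notch2, Notch3, Maml1 and Lfng lay between -0.24 and 0.18.

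**Figure D3:**
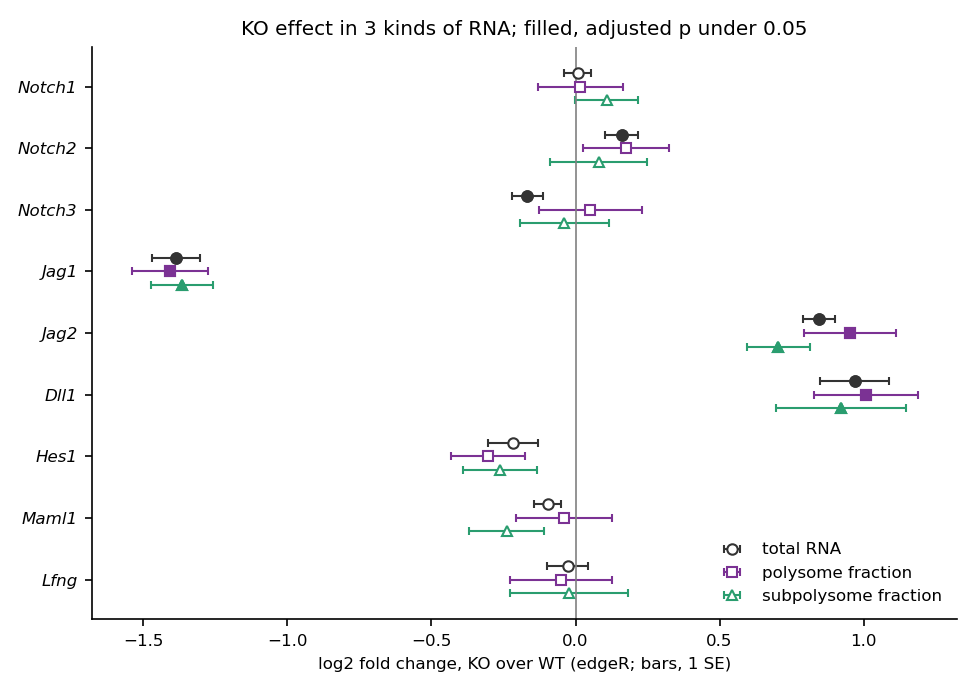
Log2 fold change of KO over WT (horizontal axis) for the 9 tested members in total RNA, polysomes and subpolysomes, with bars of 1 SE; filled symbols mark an adjusted p under 0.05. Jag1 lies near -1.4 in all 3 kinds of RNA, at -1.39, -1.41 and -1.37.

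Whether the KO effect differed between kinds of RNA was tested directly. For the interaction of genotype with polysome against subpolysome, 0 of 9 members passed, against 0.00747% of all genes tested, and 0 members had an unadjusted p under 0.05, against 5.66% of all genes. For polysome against total RNA, 0 of 9 members and 0% of all genes passed, with 0 members and 1.95% of all genes at an unadjusted p under 0.05. DESeq2 called 0 members in both. The member with the smallest p in the first of these was Jag2, whose KO effect was 0.27 ± 0.20 (SE) higher on the log2 scale in polysomes than in subpolysomes (adjusted p = 0.924, edgeR). For Jag1 the corresponding difference was -0.03 ± 0.16 (SE).

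Most of the 9 tested members were lower in polysomes than in subpolysomes under TMM scaling. In KO organoids 8 of 9 tested members passed for polysome over subpolysome, against 61.6% of all genes tested, and in WT organoids 9 of 9 did, against 63.7%. Lower in polysomes were 7 of the members in KO, against 29.9% of all genes, and 8 in WT, against 30.9%. The median over members was -0.56 in KO and -0.66 in WT on the log2 scale, beside 0.01 over all genes in each genotype. These ratios rest on TMM scaling: with library totals, the median of all genes moved to 0.90 in KO and 0.84 in WT, the values of Notch2, Jag1, Hes1 and Maml1 turned positive in both genotypes and that of Dll1 did so too, and only 4 members passed in each genotype. The other Notch pathway genes did not share the direction of the members: of 53 tested, 20 were higher and 14 lower in KO polysomes and 22 higher and 13 lower in WT polysomes under TMM scaling, with a median log2 ratio of 0.22 in KO and 0.26 in WT. The fits above did not pair same-numbered libraries. With a replicate block 9 of 9 members passed in each genotype, beside 8512 of 13392 genes in KO and 8785 in WT.

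Jag2 had the lowest ratio of the members. It stood at 42.5, 43.2 and 51.4 CPM in KO polysomes, against 119, 119 and 130 CPM in KO subpolysomes, a log2 ratio of -1.46 ± 0.14 (SE; adjusted p = 1.75e-08, edgeR). In WT the log2 ratio was -1.73 ± 0.14 (SE; adjusted p = 1.52e-09, edgeR), and 9.48% of all genes were as low or lower. Jag2 stayed below 0 and passed under every alternative in both genotypes, with library totals included.

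Notch3 came next, at -1.24 ± 0.17 in KO and -1.35 ± 0.17 in WT (SE), and Notch1 followed, at -0.92 ± 0.13 in KO and -0.85 ± 0.13 in WT. With library totals the Notch1 values were -0.03 in KO and -0.02 in WT and passed in neither, and that of Notch3 was -0.36 in KO and -0.52 in WT and passed in WT alone. Notch1 stood at 61.4, 55.4 and 52.6 CPM in KO polysomes, against 110, 103 and 100 CPM in KO subpolysomes, with no overlap. Under TMM scaling Jag1 lay nearest 0 among the ligands and receptors, at -0.43 ± 0.11 in KO and -0.40 ± 0.11 in WT. With library totals Jag1 stood at 0.46 in KO and 0.43 in WT. Both then passed in the opposite direction (adjusted p = 0.00256 and 0.00403, edgeR), so the called direction depended on the scaling. The WT call of Jag1 under TMM scaling was lost without subpolysome WT replicate 2, at -0.31 (adjusted p = 0.0513, in a range of 0.000412 to 0.0513 over the alternatives).

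The ligand mix differed by fraction in both genotypes. Jag1 made up 52.3% ± 4.4 of ligand reads per kilobase in KO polysomes and 40.1% ± 1.7 in KO subpolysomes, and 85.3% ± 3.1 in WT polysomes and 74.6% ± 4.5 in WT subpolysomes (SD, n = 3 each). Jag2 made up 27.96% ± 3.08 in KO polysomes and 43.7% ± 2.2 in KO subpolysomes, where it was the leading ligand on average.

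Dll1 had a log2 ratio of -0.53 ± 0.24 in KO (SE; adjusted p = 0.0628, edgeR; 0.35 with library totals), which passed with the replicate block (adjusted p = 0.00168, in a range of 0.00168 to 0.236). In WT the ratio was -0.63 ± 0.25 (SE; adjusted p = 0.0303, edgeR; 0.17 with library totals). The WT call was lost without subpolysome WT replicate 1, where the ratio was -0.07, and without polysome WT replicate 2 or 3, at -0.47 and -0.57 (adjusted p = 0.77, 0.151 and 0.0856, in a range of 0.000769 to 0.77).

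Hes1 lay at -0.56 ± 0.13 in KO and -0.53 ± 0.13 in WT (SE), and Maml1 at -0.45 ± 0.15 in KO and -0.66 ± 0.15 in WT. Both turned positive with library totals, and the KO value of Maml1 then passed at 0.45 (adjusted p = 0.026, edgeR). The KO call of Maml1 was lost without polysome KO replicate 3 or subpolysome KO replicate 3, at -0.34 and -0.35. Notch2 lay at -0.56 ± 0.16 in KO and -0.67 ± 0.16 in WT (SE), and also turned positive with library totals.

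Under TMM scaling Lfng was the only tested member with a higher level in polysomes, while with library totals Notch2, Jag1, Dll1, Hes1 and Maml1 lay above 0 as well. Lfng stood at 14.3, 13.8 and 21.8 CPM in KO polysomes, against 8.85, 9.65 and 13.6 CPM in KO subpolysomes, and at 16.3, 15.3 and 21.0 CPM in WT polysomes, against 10.4, 10.4 and 12.04 CPM in WT subpolysomes. Replicate 3 was the highest library in each of these 4 groups. The log2 ratio was 0.61 ± 0.20 in KO (SE; adjusted p = 0.0115, edgeR) and 0.62 ± 0.20 in WT (adjusted p = 0.0101). The KO call was lost without polysome KO replicate 3 or subpolysome KO replicate 1, at 0.36 and 0.50, and the WT call without polysome WT replicate 3, at 0.47.

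**Figure D4:**
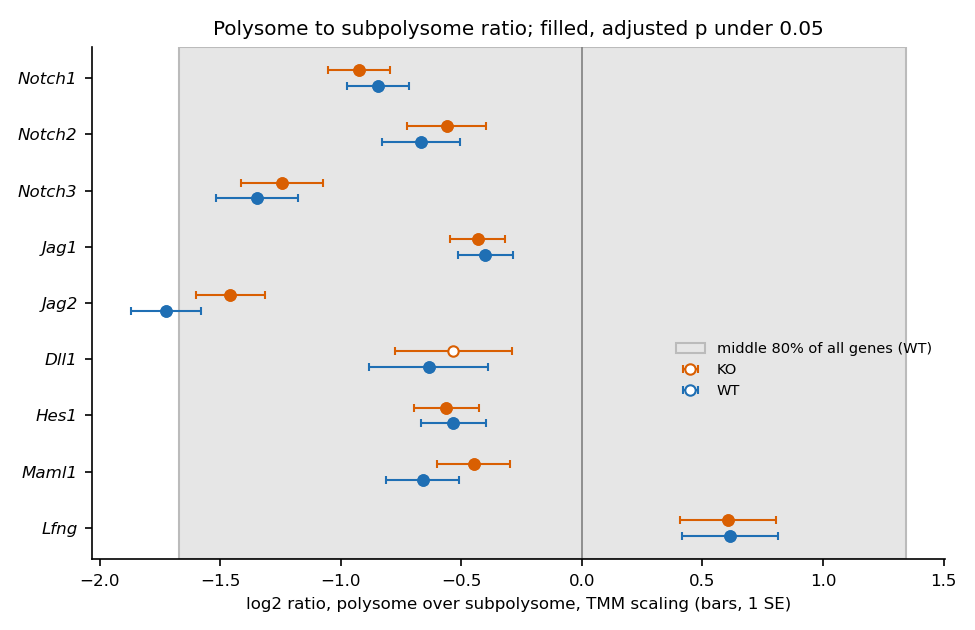
Log2 ratio of polysome over subpolysome (horizontal axis, TMM scaling) for the 9 tested members in KO (upper symbol of each pair) and WT, with bars of 1 SE, filled symbols for an adjusted p under 0.05, and a grey band for the middle 80% of all genes in WT. Jag2 lies at -1.46 in KO and -1.73 in WT and Lfng at 0.61 and 0.62, while with library totals Notch2, Jag1, Dll1, Hes1 and Maml1 lie above 0.

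The rest of the pathway was read from 6 lists of 63 other genes. The counts per list in total RNA below are to be read beside 27.0% of all genes tested higher and 26.3% lower in KO. In total RNA 54 of these were tested, 14 were higher and 16 lower in KO, or 55.6%, beside the 53.2% of all genes called, and their median log2 fold change was -0.03. Those called with an absolute log2 fold change of at least 1 were Dlk2, Neurl1a, Neurl1b, Hes2, Heyl and Nrarp. In polysomes 12 of 52 tested passed, or 23.1%, beside 28.8% of all genes, and in subpolysomes 10 of 51, or 19.6%, beside 22% of all genes.

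Of the 3 tested other receptors and ligands, Dlk2, a Delta-like protein without the usual receptor-binding domain, was higher at 14.04, 11.9 and 17.6 CPM in KO, against 8.34, 5.23 and 6.40 CPM in WT. Its log2 fold change was 1.15 ± 0.17 (SE; adjusted p = 0.000162, edgeR). Dll4, a ligand known from vessels, had 9, 9 and 17 counts in KO against 13, 16 and 17 in WT and did not pass.

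Of 14 tested genes of ligand and receptor ubiquitination and endocytosis, 4 were higher and 7 lower. Neurl1a and Neurl1b, paralogous ubiquitin ligases that act on Notch ligands, moved in opposite directions. Neurl1a stood at 3.8, 3.12 and 3.84 CPM in KO, against 10.3, 10.7 and 10.5 CPM in WT (log2 fold change -1.52 ± 0.10 (SE), adjusted p = 2.78e-07, edgeR). Neurl1b stood at 17.6, 12.1 and 15.98 CPM in KO, against 5.31, 4.88 and 4.16 CPM in WT (log2 fold change 1.70 ± 0.14 (SE), adjusted p = 1.40e-06). Neither pair of groups overlapped.

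Both also passed in the fractions: Neurl1a at -1.29 in polysomes and -1.31 in subpolysomes, and Neurl1b at 1.94 and 1.93 in the same order. Of 10 tested genes of receptor cleavage, 2 were higher and 3 lower, among them Furin, the convertase that cuts the receptor precursor, at 223, 238 and 220 CPM in KO against 307, 335 and 321 CPM in WT (log2 fold change -0.47, adjusted p = 4.71e-06, edgeR). The gamma-secretase subunit Ncstn fell by 0.24 on the log2 scale (adjusted p = 0.000331), and its call was lost in the fit over 18 libraries (adjusted p = 0.0776, in a range of 8.4e-07 to 0.0776).

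Of 8 tested genes of receptor glycosylation, 2 were higher and 3 lower, with Eogt, which adds N-acetylglucosamine to receptor repeats, at -0.40 (adjusted p = 0.00015, edgeR) and Kdelc1 at -0.32 (adjusted p = 0.00181). Of 14 tested genes of the nuclear complex, 3 were higher and 1 lower. The coactivator Maml2 had a log2 fold change of -0.39 (adjusted p = 0.000603, edgeR) and the RBPJ partner Snw1 one of 0.21 (adjusted p = 0.000831), lost in the fit over 18 libraries (adjusted p = 0.159, in a range of 3.6e-05 to 0.159).

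Of 5 tested other target and feedback genes, 2 were higher and 2 lower. Nrarp, a Notch-induced ankyrin protein that destabilises the receptor's intracellular domain, stood at 86.3, 82.4 and 75.5 CPM in KO, against 216, 219 and 185 CPM in WT. The groups lay far apart, with a log2 fold change of -1.31 ± 0.07 (SE), 2.49-fold lower in KO (adjusted p = 3.31e-08, edgeR). It was also lower in polysomes, at -1.41 (adjusted p = 1.69e-06, edgeR), and in subpolysomes, at -0.96 (adjusted p = 1.01e-06).

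Heyl, a target of the Hey family, had 8, 3 and 7 counts in KO against 18, 29 and 40 in WT total RNA, and Hes2 had 29, 30 and 49 counts in KO against 18, 6 and 1 in WT. Both passed in total RNA (adjusted p = 0.00256 and 0.0157, edgeR) on few counts, and both calls were lost in the fit over 18 libraries (adjusted p = 0.0826 and 0.132). The Hes2 call was also lost without KO replicate 3 or WT replicate 2 (adjusted p = 0.0673 and 0.0559). The adjusted p over the alternatives ranged from 0.0013 to 0.0826 for Heyl and from 0.00192 to 0.132 for Hes2, whose log2 fold change of 2.00 became 3.18 without WT replicate 1.

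**Figure D5:**
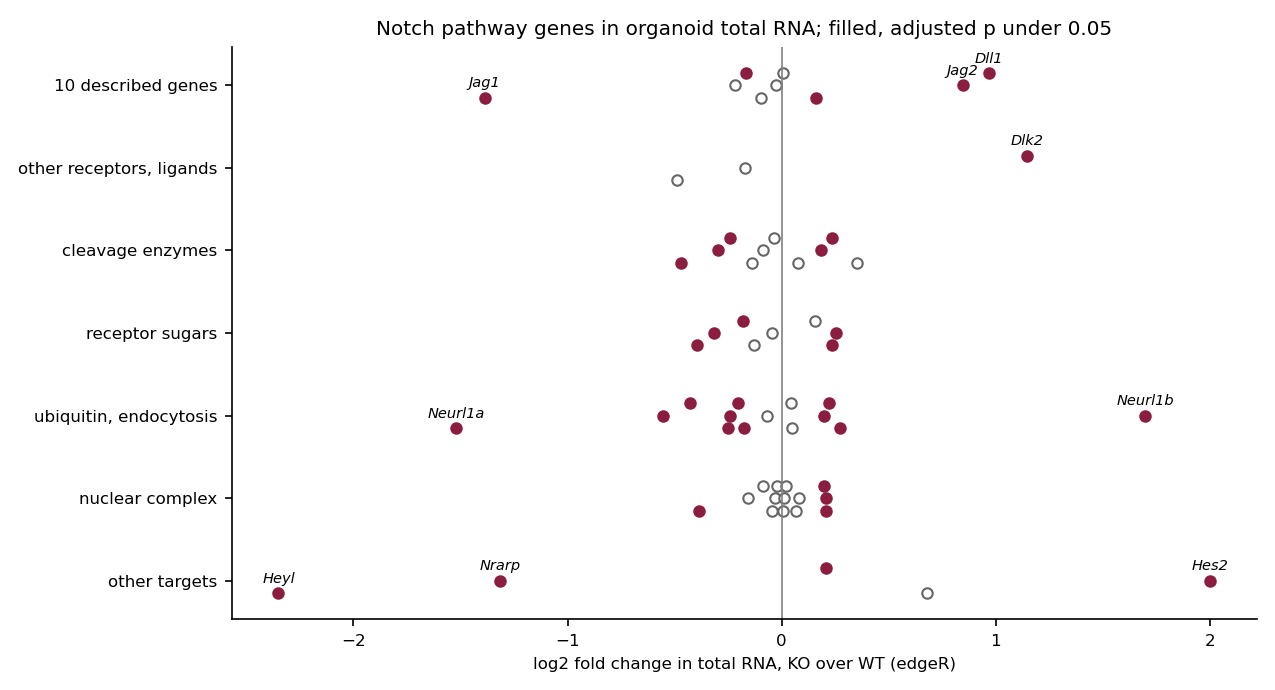
Log2 fold change of KO over WT in total RNA (horizontal axis) for the described genes and 6 lists of other Notch pathway genes (rows), 1 point per tested gene, filled for an adjusted p under 0.05. Nrarp at -1.31, Neurl1a at -1.52 and Jag1 at -1.39 lie on the low side, and Neurl1b at 1.70 and Dlk2 at 1.15 on the high side.

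The cancer organoids carried the same question of KO against WT, with 2 libraries a label. Of 9 tested members 0 passed, as did 0% of all genes tested with edgeR, and 0 members had an unadjusted p under 0.05, against 0.757% of all genes. DESeq2 called 0 members and 11 genes in all. The groups did not overlap for 4 of the 9 members, against 20.7% of all genes. In simulated counts for this comparison, over 12681 genes, 0% of changes of 1 on the log2 scale and 18.8% of changes of 2 were recovered. These shares average over genes drawn at random, whose spread varies. They do not say whether a Jag1 change of the primary size would have passed, and Jag1 itself had an SE of 0.13 here.

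Jag1 stood at 120 and 124 CPM in the libraries labelled KO, against 140 and 132 CPM in those labelled WT, a log2 fold change of -0.15 ± 0.13 (SE). Jag2 stood at 366 and 464 CPM in those labelled KO, against 407 and 407 CPM in those labelled WT, at 0.04 ± 0.17. Dll1 stood at 167 and 189 CPM in those labelled KO, against 162 and 111 CPM in those labelled WT, at 0.39 ± 0.24. The first and last of these did not overlap between labels, and Jag2 did.

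Notch1 stood at 34.3 and 13.6 CPM in the libraries labelled KO, against 36.3 and 52.3 CPM in those labelled WT, at -0.88 ± 0.52 on the log2 scale (SE). Maml1 was the other member without overlap, at 45.2 and 41.0 CPM in those labelled KO against 59.8 and 49.5 CPM in those labelled WT. Hey1 had 2 and 3 counts in those labelled KO against 13 and 9 in those labelled WT and was not tested. The log2 Jag1 to Jag2 ratio was -1.61 and -1.91 in those labelled KO, against -1.54 and -1.62 in those labelled WT (exact two-sided permutation test, p = 0.6667, where the smallest possible is 0.3333).

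A test of the difference between the cancer and the primary KO effects, added after the data were seen, passed for 2 of 10 members, Jag1 and Jag2, against 3.13% of all genes. The 10 include Hey1, which passed the filter on low counts only through the libraries labelled WT in which it was high. Nothing is read from its value of -1.05 ± 1.36 (SE). The Jag1 KO effect was 1.21 ± 0.16 (SE) higher on the log2 scale in cancer than in primary organoids (adjusted p = 0.0113, edgeR, in a range of 3.65e-09 to 0.0457 over 14 alternatives). The Jag2 KO effect differed by -0.83 ± 0.15 (SE; adjusted p = 0.0354, in a range of 0.000149 to 0.112), and its call was lost without any 1 of 5 of the 6 primary libraries, WT replicate 1 being the exception. Both rest on the cancer labels, which the Arid1a levels of 2 libraries run against.

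Cancer and primary organoids differed in the members other than Hey1, with both genotypes averaged. These 9 passed, 4 higher and 5 lower in cancer, against 77.8% of 14305 genes tested. Hey1 is left out of the count because it passed the filter on low counts only through the libraries labelled WT in which it was high. The submitters' processing notes name Bowtie for the primary libraries only, so source and processing cannot be told apart. Luminal markers summed to 140.9 to 174.5 CPM in the cancer libraries labelled KO and 163.1 to 280 CPM in those labelled WT, against 2826 to 3123 CPM in KO and 2114 to 2191 CPM in WT primary organoids, and 13 of 14 were lower in cancer. Basal markers summed to 15270 to 21170 CPM and 13590 to 18900 CPM in the cancer libraries labelled KO and WT, beside 12980 to 13970 CPM and 11800 to 13840 CPM in KO and WT primary total RNA. Of the 10 squamous markers 6 were higher and 3 lower in cancer, with a median log2 fold change of 2.24, and their sum was 384.5 to 2228 CPM in the cancer libraries labelled KO and 544.9 to 2267 CPM in those labelled WT, against 3176 to 3303 CPM in KO and 1954 to 2270 CPM in WT primary total RNA. The part of these markers in the Notch differences was not tested.

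Jag2 and Dll1 were higher in cancer. Jag2 spanned 366 to 464 CPM over the 4 cancer libraries, against 55.4 to 104 CPM over the 6 primary libraries, a log2 fold change of 2.41 ± 0.08 (SE; adjusted p = 6.24e-08, edgeR), or 5.32-fold. Dll1 spanned 111 to 189 CPM in cancer, against 15.6 to 37.98 CPM in primary organoids, at 2.59 ± 0.14 (SE; adjusted p = 8.02e-07), or 6.03-fold. Neither overlapped between sources.

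Jag1 was lower in cancer on average, at -0.67 ± 0.08 (SE; adjusted p = 8.70e-05, edgeR), but the sources overlapped: the cancer range of 120 to 140 CPM lay above KO replicate 1 of the primary organoids at 107 CPM and below all primary WT libraries. In the libraries labelled WT alone its log2 fold change was -1.28. Among the cancer libraries Jag2 was the leading ligand per kilobase, with 48.4% ± 2.6 of ligand reads in those labelled KO and 51.4% ± 4.2 in those labelled WT (SD, n = 2 each). Jag1 made up 17.1% ± 1.6 in those labelled KO and 20.5% ± 0.9 in those labelled WT.

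The receptors changed order. Notch1 ranged from 13.6 to 52.3 CPM in cancer, against 167 to 184 CPM in primary organoids, at -2.44 ± 0.25 (SE; adjusted p = 3.54e-05, edgeR), or 5.42-fold lower. Notch2 ranged from 73.8 to 95.6 CPM in cancer, against 38.03 to 46.6 CPM in primary organoids, at 1.05 ± 0.08 (adjusted p = 4.11e-06). Notch2 held 74.4% ± 7.3 of receptor reads per kilobase in cancer libraries labelled KO and 62.7% ± 6.0 in those labelled WT (SD, n = 2 each), against 20.7% ± 1.3 in KO and 18.6% ± 0.9 in WT primary organoids (SD, n = 3 each).

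Notch3 ranged from 6.79 to 20.5 CPM in cancer, against 26.6 to 32.1 CPM in primary organoids, at -1.28 ± 0.28 (SE; adjusted p = 0.00275, edgeR). In the libraries labelled WT alone its value was -1.18 and did not pass (adjusted p = 0.0814). Hes1 ranged from 26.0 to 37.5 CPM in cancer, against 91.4 to 135 CPM in primary organoids, at -1.85 ± 0.12 (SE; adjusted p = 2.60e-06), or 3.61-fold lower.

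Lfng ranged from 24.1 to 45.7 CPM in cancer, against 12.7 to 14.6 CPM in primary organoids, at 1.33 ± 0.20 (SE; adjusted p = 0.000301, edgeR). Maml1 overlapped between sources, at -0.22 ± 0.07 (adjusted p = 0.0168), and did not pass in the libraries labelled WT alone (-0.09, adjusted p = 0.474). Hey1 had 2 and 3 counts in the cancer libraries labelled KO and 13 and 9 in those labelled WT, against 1 to 2 in KO and 1 to 6 in WT primary total RNA. Its fitted value of 1.92 ± 0.63 (adjusted p = 0.0209, edgeR) gave adjusted p-values of 0.0018 to 0.0828 over the alternatives, with 0.0828 without cancer KO replicate 2, 0.0586 without cancer WT replicate 1, 0.0557 with DESeq2 and 0.0541 in the libraries labelled WT alone, and no call is drawn from so few reads.

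Over the 8 groups the members differed in their order, but the order of polysomes and subpolysomes depended on the scaling. With library totals Jag1 stood at 204 to 222 CPM in WT polysomes and 151 to 167 CPM in WT subpolysomes. In KO it then stood at 72.8 to 97.1 CPM in polysomes and 56.9 to 68 CPM in subpolysomes. The ratios of Notch2, Dll1, Hes1 and Maml1 also turned positive with library totals. The orders below use TMM scaling. Jag1 ran from WT total RNA (331 ± 28 CPM) through WT subpolysomes (245 ± 19), WT polysomes (194 ± 12), cancer labelled WT (136 ± 6), KO total RNA (124 ± 15), cancer labelled KO (122 ± 3) and KO subpolysomes (94.2 ± 6.1) to KO polysomes (71.6 ± 8.4; SD, n = 3, or 2 for cancer). Cancer labelled WT and KO total RNA overlapped, as did KO total RNA and cancer labelled KO, and the other neighbours did not. Jag2 ran from cancer labelled KO (415 ± 70 CPM) and cancer labelled WT (407 ± 0.3), which overlapped, through KO subpolysomes (123 ± 6), KO total RNA (102 ± 3), WT subpolysomes (75.9 ± 6.6), WT total RNA (57.7 ± 3.8) and KO polysomes (45.7 ± 4.9) to WT polysomes (24 ± 5.3), with no overlap between any other neighbours.

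Dll1 was highest in cancer labelled KO (178 ± 15 CPM) and cancer labelled WT (137 ± 36), followed by KO total RNA (35.6 ± 2.4), KO subpolysomes (27.5 ± 1.6) and KO polysomes (19.5 ± 1.2), and the last of these overlapped with WT total RNA (18.5 ± 3.8; SD). WT subpolysomes (14.6 ± 7.6) and WT polysomes (9.87 ± 2.83) came last and overlapped. Hes1 ran the other way by source, with KO total RNA (109 ± 16) and WT total RNA (130 ± 6) at the top and cancer labelled KO (34.8 ± 1.7) and cancer labelled WT (31.7 ± 8.2), which overlapped, at the bottom.

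Notch1 was also lowest on average in cancer, at 23.97 ± 14.7 CPM in libraries labelled KO and 44.3 ± 11.3 in those labelled WT. KO polysomes (56.5 ± 4.5) and WT polysomes (56.9 ± 10.4; SD) came next. Cancer labelled WT overlapped with WT polysomes, with a highest library of 52.3 CPM against a lowest of 47.6 CPM. Notch2 was highest in cancer, at 91.1 ± 6.3 CPM in libraries labelled KO and 84.0 ± 14.4 in those labelled WT. Under TMM scaling it was lowest in KO polysomes (14.4 ± 1.4) and WT polysomes (13.0 ± 1.6). For Notch3, KO polysomes (8.16 ± 0.83) and WT polysomes (8.03 ± 1.82) were lowest and overlapped with the cancer libraries. Lfng ranged from 10.7 ± 2.5 CPM in KO subpolysomes to 35.5 ± 12.4 CPM in cancer labelled WT. Under TMM scaling Maml1 ranged from 25.4 ± 3.7 CPM in KO polysomes to 58.5 ± 2.3 CPM in WT total RNA.

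The genes whose pattern over the 22 libraries was most like that of a member were found by the root mean square difference of centred log2 CPM among 8951 genes. For Hes1 these were Trim29 (0.222) and Bcl9 (0.241), for Jag1 Tmem64 (0.342) and Tmem2 (0.344), and for Notch1 Plekha7 (0.32) and Sik1 (0.329). For Hey1 they were Mmachc (0.73) and Kdelc1 (0.738), a loose match on very few reads. The member's own values spanned 2.37 log2 units for Hes1, 2.44 for Jag1, 3.76 for Notch1 and 3.00 for Hey1.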

How the data were processed

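The authors deposited raw read counts per gene for each of 22 libraries, with 24421 gene symbols each. Per the submitters' processing notes, reads were aligned to mm10 with Bowtie named for the 18 primary libraries and counted with HTSeq; the sources used here give no versions, annotation or use of strand. Per the labels' protocols, RNA was purified with a column kit and DNase, for the fractions after a sucrose gradient. The fits used R 4.3.3 and edgeR 4.0.16: genes kept by filterByExpr, TMM scaling, the quasi-likelihood F test of glmQLFit, and p-values adjusted after Benjamini and Hochberg over all tested genes with a threshold of 0.05. KO against WT was fitted on the 6 libraries of each kind of RNA, the gradient contrasts and interactions on 12 and the cancer contrasts on 4 or 10. SE was taken as the size of the log2 fold change divided by the root of its F. Gene lengths are exon unions of GENCODE vM21 on GRCm38. The 10 members and all gene lists were chosen with earlier results of these data known. All members were named, and of other pathway genes the 2 of smallest p per list and those called with an absolute log2 fold change of at least 1. Likeness was measured over genes of mean log2 CPM of at least 3 with a prior count of 2. Replicates of a group differed by 11.9 to 247 times the chi-square degrees of freedom, so none was a copy. Same-numbered libraries deviated together in polysomes (correlation 0.255 to 0.53), in subpolysomes (0.127 to 0.19) and between the fractions (0.106 to 0.45), and the numbers were taken to pair them. Same-numbered libraries of total RNA did not (-0.209 to 0.395). The main fits left this pairing out, and only the replicate block used it. The fits were tested on simulated data. DESeq2 1.42.0, other scalings and filters, leaving out each library and a replicate block were tried as alternatives.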

Additional observations from a re-analysis of the deposited data

Results flagged for a closer look

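The Jag1 difference between KO and WT was not the same in the cancer and the primary organoids by a test of the difference itself: the KO effect was 1.21 higher on the log2 scale in cancer (adjusted p = 0.0113, edgeR). In primary total RNA the highest KO library (133 CPM) was under the lowest WT library (305 CPM), and in cancer both libraries labelled KO lay below both labelled WT by a smaller distance. The Jag2 effect differed in the opposite direction, by -0.832 (adjusted p = 0.0354, edgeR), with all 3 primary KO libraries above all 3 WT libraries and the cancer labels overlapping. The Arid1a reads of 1 cancer library of each label run against that label, and its part in both differences was not tested.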

How the results depend on the processing

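Jag1, Jag2 and Dll1 kept direction and call for KO against WT in total RNA, polysomes and subpolysomes under all 12 alternatives in each. Members called in total RNA numbered 3 in the fit on all 18 libraries (which called 3784 genes, against 7025) and 3 to 6 with a library left out. With library totals as scaling, chosen after seeing the data, members called for polysome over subpolysome numbered 4 in KO and 4 in WT. The KO log2 ratios then became 0.33 for Notch2, 0.46 for Jag1, 0.32 for Hes1 and 0.45 for Maml1. The WT ratios became 0.15 for Notch2, 0.43 for Jag1, 0.17 for Dll1, 0.29 for Hes1 and 0.18 for Maml1. Jag1 in both genotypes and Maml1 in KO passed in the direction opposite to that under TMM scaling. For genotype by source, members called numbered 1 to 3 with a library left out, and Notch3 ranged from -0.79 to 0.80, passing without cancer WT replicate 2; Notch1 passed at -1.72 without cancer KO replicate 1. All genes called in that test numbered 448, against 1665 with DESeq2. The cause of these moves was not tested.

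With a replicate block, members called numbered 6 in total RNA, 4 in polysomes, 3 in subpolysomes, 9 for polysome over subpolysome in each genotype and 0 in both interactions and in cancer; in total RNA the added call was Hes1 (adjusted p = 0.0348), where the libraries share only a number. All genes called for the interaction of genotype and fraction numbered 13 with the block, against 1 (12 with DESeq2). In cancer, same-numbered libraries correlated at -0.387, and both the crossed pairing, added after seeing the data, and the plain one called 0 members and 0 genes.

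Sign changes between values that passed in neither fit occurred in 89 of 717 member values. Hey1 and the cancer comparison are limited by depth and by 2 libraries a label.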

Other observations

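Outside the members, the pathway lists also differed between cancer and primary organoids, beside the 77.8% of all genes called. Of 8 tested genes of receptor glycosylation 6 were higher and 0 lower in cancer, and of 14 of the nuclear complex 10 were higher and 3 lower. Of 14 genes of ubiquitination and endocytosis 3 were higher and 9 lower, and of 5 other targets 0 were higher and 3 lower. Neurl3, a ubiquitin ligase of the neuralized family, and Dtx4, a Deltex family ligase, were chosen after their values were seen. Neurl3 had 3 and 2 counts in the cancer libraries labelled KO and 100 and 5 in those labelled WT, against 2746 to 3095 in KO and 3542 to 3975 in WT primary total RNA. Dtx4 had 12 and 37 counts in the cancer libraries labelled KO and 269 and 15 in those labelled WT, against 4705 to 4980 in KO and 6433 to 6749 in WT primary total RNA. Cancer WT replicate 1 was the highest cancer library for both.

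Nrarp stood at 45.9 and 19.5 CPM in the cancer libraries labelled KO and 18.5 and 54.4 CPM in those labelled WT, and Neurl1b at 21.3 and 5.94 CPM in those labelled KO and 1.44 and 28.8 CPM in those labelled WT. In primary total RNA these genes had moved in opposite directions. Nrarp averaged 81.4 CPM in KO and 206 CPM in WT, and Neurl1b 15.2 CPM in KO and 4.78 CPM in WT. In the cancer libraries the higher values of both genes were those of KO replicate 1 and WT replicate 2, which also had the higher Arid1a levels, at 174 and 196 CPM. Squamous keratins stood apart in the same 2 libraries: Krt10 was 812 and 53.7 CPM in the libraries labelled KO and 37.4 and 845 CPM in those labelled WT, Krt1 was 451 and 44.6 CPM in those labelled KO and 109 and 602 CPM in those labelled WT, and Krt13 was 174 and 9.98 CPM in those labelled KO and 30.8 and 261 CPM in those labelled WT. The squamous markers Lor, Sprr1a, Sprr1b and Dsg1a were also higher in these 2 libraries, and Sprr2d had 10 counts or fewer. Ivl and Evpl did not split this way. Ivl was 81.6 and 13.4 CPM in those labelled KO and 132 and 50.7 CPM in those labelled WT. Evpl was 99.7 and 187 CPM in those labelled KO and 86.1 and 121 CPM in those labelled WT. The part of the squamous markers in the Nrarp and Neurl1b values was not tested. Nrarp, Neurl1b and these squamous genes were chosen here after their values were seen.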
